A study of Mus musculus with 6 samples.

Results

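The 7 genes described here carry the response of the adrenal cortex to the pituitary hormone ACTH: Mc2r (the ACTH receptor), Mrap (its accessory protein), Prkar1a (a regulatory subunit of protein kinase A, PKA), Nr5a1 (steroidogenic factor 1, SF-1), Nr0b1 (DAX1), Akr1b7 and Inha. They were chosen by name, and all 7 were found among the 12718 genes of the count tables. Polymerase II on these genes was measured by ChIP-seq of its largest subunit, RPB1, with pull-down through the N-terminal part. Glands came from female mice of a 129 sv X CD1 background, aged 10 to 14 months, 3 with the genotype Armc5(-/-), called KO, and 3 WT. Armc5 encodes an armadillo-repeat protein that is mutated in human bilateral macronodular adrenal hyperplasia. The labels give each library its own mouse number, so n = 3 mice per genotype. Each gland was homogenized whole, so cortex, medulla and capsule are mixed in each library. Armc5 itself was not analysed here, so the deletion was not checked in these libraries.

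In the cortex, ACTH binds its melanocortin receptor, which reaches the cell surface only with the accessory protein MRAP. The bound receptor raises cyclic AMP, which releases the catalytic subunits of PKA from regulatory subunits such as the product of Prkar1a, and PKA then drives steroid synthesis. SF-1 is the nuclear receptor that activates most steroidogenic genes, and DAX1 is a nuclear receptor that represses it. Akr1b7 encodes an aldo-keto reductase that detoxifies a by-product of cholesterol side-chain cleavage and is kept on by ACTH in the mouse, and Inha encodes the alpha subunit of inhibin.

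RefSeq promoter sequences (GRCm38.p6) were examined for 4 of the 7 genes and are shown for 3 of them. Those of Mc2r, Mrap and Nr5a1 were not examined. Nr0b1 is shown because its start site had the widest difference between genotypes, Akr1b7 because its gene body was the most densely occupied, and Prkar1a because RefSeq gives it 6 starts. The Nr0b1 and Akr1b7 sequences are the 250 bases before the start, on the plus strand at chrX:86191525-86191774 and chr6:34412112-34412361. Capitals mark AGGTCA, the half-site that SF-1 and other nuclear receptors bind, and TATAAA, the TATA box, on either strand.
Nr0b1: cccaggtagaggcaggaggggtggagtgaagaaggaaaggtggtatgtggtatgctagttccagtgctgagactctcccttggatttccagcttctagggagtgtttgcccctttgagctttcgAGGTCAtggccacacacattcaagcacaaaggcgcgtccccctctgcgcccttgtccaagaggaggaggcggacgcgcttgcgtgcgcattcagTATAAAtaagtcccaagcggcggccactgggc
Akr1b7: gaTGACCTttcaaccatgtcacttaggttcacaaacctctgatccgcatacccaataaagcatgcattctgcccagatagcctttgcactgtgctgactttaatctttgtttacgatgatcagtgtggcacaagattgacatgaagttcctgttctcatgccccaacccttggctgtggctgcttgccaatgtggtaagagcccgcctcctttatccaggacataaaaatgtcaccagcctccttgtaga
The Prkar1a sequence is 30 bases at chr11:109650889-109650918, plus strand, before the fifth of its starts and after the fourth. Capitals mark 8 bases in which TGACGT, the core of the cyclic AMP response element, was found on both strands. These bases read the same on either strand, so this is a single site.
Prkar1a: gcgaggcgcatTGACGTCAgcagccgaacg

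In Nr0b1 the half-site lay at positions -126 to -121 and the TATA box at -32 to -27. In Akr1b7 the half-site lay on the minus strand at -248 to -243, and TATAAA was not among these 250 bases. Of 32851 RefSeq windows of the same length, 14% held AGGTCA, 6.47% held TGACGT and 12.4% held TATAAA, counting either strand, so single matches are common. Among the 12349 windows of genes in the count tables the shares were 10.5%, 9.98% and 6.24% in the same order. The listed Inha start lies 532 bp inside the annotated gene, so its window is not shown. The 6 Prkar1a starts span 2319 bp. Of their windows only that before the fifth held any of these motifs, and the shares above are for a single window, not for any of 6. The window before the first has 48.4% G and C and 3 CpG sites, and that before the sixth has 80.4% and 37. The sources used here do not give the start around which the deposited TSS counts of Prkar1a were taken.

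The 6 libraries summed to between 14511177 and 28190157 counts. The start site (TSS) tables held 1133364 to 3406223 counts per library, the gene bodies 12419812 to 22523647 and the end sites (TES) 958001 to 2294430. Values below are CPM, counts scaled to the TMM-adjusted total of the region's table. KO replicate 1 and WT replicates 1 and 2 had the fewest counts, and 1 predicted gene held 10.9% to 25.1% of their TSS counts, against 2.67% to 4.66% in the other 3 libraries. The 6 cortex markers were all measured, at 3361 to 4111 summed gene body CPM in KO and 2091 to 5243 in WT. Of the 8 medulla markers 7 were measured, and no measured marker of either list was at 0 in any library.

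None of the 7 genes passed the edgeR quasi-likelihood test of KO against WT in any region: 0 of 21 tests had an adjusted p under 0.05, and 1 had an unadjusted p under 0.05. Over all tested genes the calls made up 0.339% of the TSS table, 0.252% of the gene body table and 0.915% of the TES table, so 0 of 7 is near the background. An unadjusted p under 0.05 was reached by 5.57%, 5.05% and 6.85% of all genes in the same order, and the 3 KO and 3 WT values did not overlap in 11.4%, 10.4% and 11.5%. DESeq2 and limma-voom also called 0 members in each region. A missed threshold does not show equal occupancy, and the 95% intervals of the 7 gene body fold changes ran from 0.551-fold to 2.32-fold.

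**Figure D1:**
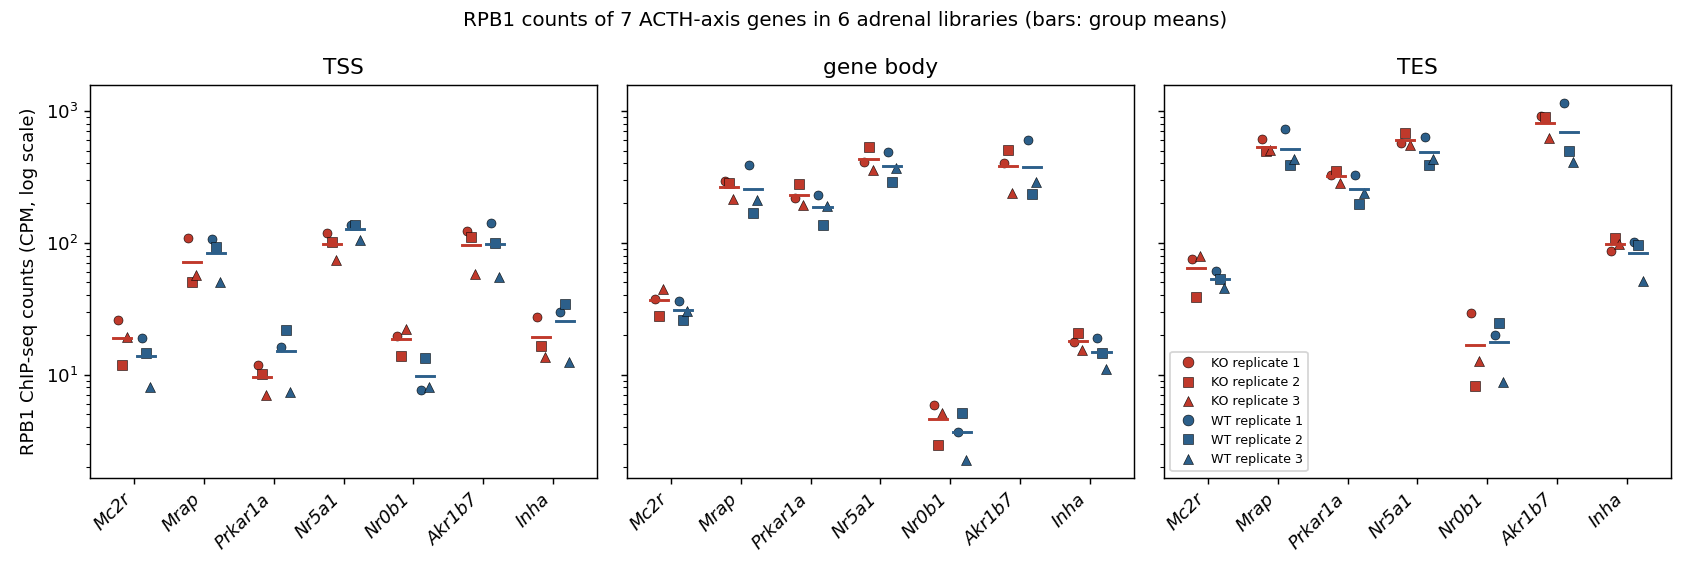
CPM on a log axis for each of the 7 genes in 3 panels, TSS, gene body and TES; points are single libraries (shape gives the replicate), red KO and blue WT, and bars are group means. The groups overlap in every panel and gene except Nr0b1 at its start, where KO lies at 14.0 to 22.3 CPM and WT at 7.62 to 13.4.

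The genes spanned a wide range of polymerase density. Per kilobase of annotated gene, Akr1b7 carried the most gene body counts, 35.5 ± 12.6 CPM per kb in KO and 34.6 ± 18.2 in WT (SD, n = 3 each), rank 49 and 37 of 12381 genes with a length. Mrap followed with 22.9 ± 3.76 CPM per kb in KO and 22.1 ± 9.99 in WT, and Nr5a1 with 19.9 ± 4.09 in KO and 17.5 ± 4.69 in WT. The libraries of these 3 neighbours in the order overlapped within each genotype. Prkar1a had 11.2 ± 2.17 CPM per kb in KO and 9.01 ± 2.33 in WT, below every Nr5a1 library of the same genotype. Inha had 5.43 ± 0.82 CPM per kb in KO and 4.53 ± 1.19 in WT. These 5 lay at or above the 87.4th percentile of all genes in both genotypes. Mc2r, whose product starts the pathway, had only 1.64 ± 0.37 CPM per kb in KO and 1.38 ± 0.22 in WT, at percentiles 47.0 and 37.4, close to the median gene at 1.73 in both. Nr0b1 was lowest, at 1.11 ± 0.37 in KO and 0.88 ± 0.34 in WT, and its libraries overlapped those of Mc2r. In whole glands, fewer cells of a type and less polymerase per cell cannot be told apart.

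Mc2r (chromosome 18, 68406899 to 68429320 in GRCm38.p6, the build of all coordinates here) encodes the receptor. The gene body held 37.8, 28.0 and 44.3 CPM in the KO libraries (replicates 1, 2 and 3, here and below), against 35.9, 26.2 and 30.6 CPM in the WT libraries. KO replicate 3 was the highest library and KO replicate 2 lay within the WT range. Its log2 fold change, with the standard error, was 0.25 ± 0.21 (edgeR, adjusted p = 0.934). At the TSS Mc2r had 25.9, 11.8 and 19.4 CPM in KO and 19.1, 14.5 and 8.00 CPM in WT. These rested on 43 to 53 reads per KO library and 14 to 35 per WT library. The TSS log2 fold change was 0.47 ± 0.42 (edgeR, adjusted p = 0.952), with groups that overlapped. At the TES the values were 38.8 to 79.2 CPM in KO and 45.5 to 61.5 CPM in WT (log2 fold change 0.27 ± 0.24). A predicted noncoding gene overlaps Mc2r, and another overlaps Prkar1a, and their reads cannot be told apart from those of the members.

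Mrap (chromosome 16, 90738207 to 90749785) encodes the small membrane protein that carries the receptor to the surface. Over the gene body Mrap had 295, 284 and 215 CPM in KO, against 386, 168 and 212 CPM in WT. The WT libraries stood at both ends, replicate 1 above and replicate 2 below every KO library. The gene body log2 fold change was 0.05 ± 0.30 (edgeR, adjusted p = 0.985), with a 95% interval of 0.642-fold to 1.67-fold. At the TSS Mrap had 109, 50.1 and 56.7 CPM in KO and 107, 93.1 and 50.2 CPM in WT. The replicates numbered 1 were the highest of each genotype there. The TSS log2 fold change was -0.22 ± 0.33 and that at the TES 0.06 ± 0.29. Urb1, 1742 bp away, is the nearest gene and could share reads at the Mrap end.

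Prkar1a (chromosome 11, 109649023 to 109669663) encodes a PKA regulatory subunit that holds the kinase inactive. Over the gene body Prkar1a had 218, 281 and 195 CPM in KO, against 231, 135 and 192 CPM in WT. WT replicate 2 was the lowest library and KO replicate 2 the highest, and the other 4 lay between 192 and 231. The gene body log2 fold change was 0.31 ± 0.23 (edgeR, adjusted p = 0.934), the second highest of the 7, at percentile 91.0 of all tested genes. At the TSS Prkar1a had only 11.8, 10.1 and 6.95 CPM in KO and 16.3, 21.7 and 7.36 CPM in WT, on 19 to 37 reads per library. The TSS log2 fold change was -0.59 ± 0.45 (edgeR, adjusted p = 0.952). At the TES it had 286 to 353 CPM in KO and 198 to 329 CPM in WT (log2 fold change 0.33 ± 0.27). The annotated span of Fam20a lies 83 bp beyond the annotated end of Prkar1a, so the TES window may hold reads of both.

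Nr5a1 (chromosome 2, 38692656 to 38714542) encodes SF-1. Over the gene body Nr5a1 had 413, 533 and 358 CPM in KO, against 492, 289 and 367 CPM in WT. KO replicate 2 was the highest and WT replicate 2 the lowest, with the groups overlapping. The gene body log2 fold change was 0.18 ± 0.23 (edgeR, adjusted p = 0.939), with a 95% interval of 0.782-fold to 1.65-fold. At the TSS Nr5a1 had 118, 101 and 73.9 CPM in KO, against 137, 137 and 106 CPM in WT. Only KO replicate 1 reached the WT range. The TSS log2 fold change of -0.37 ± 0.20 did not pass (edgeR, adjusted p = 0.952). At the TES Nr5a1 had 567, 678 and 554 CPM in KO, against 638, 391 and 429 CPM in WT. WT replicate 1 lay among the KO libraries there (log2 fold change 0.30 ± 0.28).

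Nr0b1 (chromosome X, 86191775 to 86195947) encodes DAX1, the repressor of SF-1, and was the member with the widest TSS difference. Its TSS counts were 19.7, 14.0 and 22.3 CPM in KO, against 7.62, 13.4 and 8.00 CPM in WT. Every KO library lay above every WT library, by 14.0 against 13.4 CPM at the closest point. Such a separation, with KO higher, was found in 6.47% of all genes tested at the TSS. The log2 fold change was 1.00 ± 0.37 (95% interval 0.18 to 1.82; unadjusted p = 0.0214), and it did not pass after adjustment over all genes (edgeR, adjusted p = 0.727). The TSS rested on 35 to 61 reads per KO library and 13 to 25 per WT library. In the gene body Nr0b1 had 5.91, 2.94 and 5.08 CPM in KO and 3.65, 5.12 and 2.26 CPM in WT, with groups that overlapped (log2 fold change 0.35 ± 0.38). At the TES it had 29.1, 8.23 and 12.8 CPM in KO and 20.1, 24.5 and 8.75 CPM in WT (log2 fold change -0.09 ± 0.55). The TES values rested on 18 to 38 reads per library. Among the other tests the TSS value stayed between 0.84 and 1.24 and the smallest adjusted p was 0.150, with library sizes taken from the 3 regions together.

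Akr1b7 (chromosome 6, 34412362 to 34423137) encodes the ACTH-responsive aldo-keto reductase. The Akr1b7 gene body held 406, 505 and 237 CPM in KO, against 597, 233 and 288 CPM in WT. Within each genotype the highest library was over 2 times the lowest. The gene body log2 fold change was 0.04 ± 0.39 (edgeR, adjusted p = 0.992), with a 95% interval of 0.551-fold to 1.91-fold. At the TSS Akr1b7 had 123, 109.8 and 57.8 CPM in KO, against 140.5, 99.3 and 54.7 CPM in WT. The groups overlapped over most of their ranges, and the TSS log2 fold change was -0.01 ± 0.34. At the TES it had 917, 899.9 and 628 CPM in KO, against 1154, 498 and 412 CPM in WT (log2 fold change 0.24 ± 0.32). The related genes Akr1b3, Akr1b8 and Akr1b10 are in the same tables, at gene body means of 103, 48.6 and 62.1 CPM over all libraries. Reads could be shared among such copies, since the counting is not described.

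Inha (chromosome 1, 75507077 to 75510366) encodes the inhibin alpha subunit. The Inha gene body held 17.6, 20.7 and 15.3 CPM in KO, against 18.9, 14.7 and 11.1 CPM in WT. The groups overlapped, with KO replicate 2 the highest and WT replicate 3 the lowest (log2 fold change 0.27 ± 0.23; edgeR, adjusted p = 0.934). At the TSS it had 13.5 to 27.6 CPM in KO and 12.5 to 34.1 CPM in WT (log2 fold change -0.38 ± 0.42). The TSS values rested on 33 to 60 reads per library. At the TES it had 87.4, 109 and 98.4 CPM in KO, against 102, 96.1 and 51.2 CPM in WT (log2 fold change 0.26 ± 0.24). WT replicate 3 was the lowest library in all 3 regions. Obsl1 lies 591 bp from Inha, so some reads near it may be shared.

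**Figure D2:**
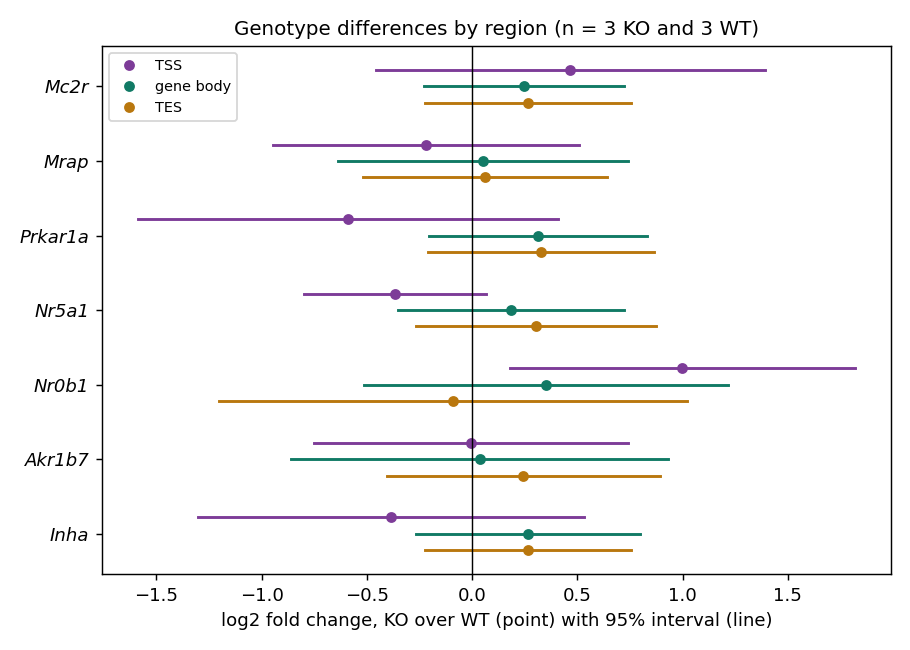
Log2 fold change, KO over WT, of each gene (rows) for the TSS (purple), gene body (green) and TES (brown); points are edgeR estimates and lines their 95% intervals, n = 3 per genotype. All intervals include 0 except that of Nr0b1 at the TSS, 0.18 to 1.82, which did not pass after adjustment.

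Most of the gene body and TES estimates were positive and most of the TSS estimates negative. Gene body log2 fold changes were positive in 7 of 7 genes, with a median of 0.25, while the median of all tested genes was -0.02 and 46.3% of them were positive. At the TES 6 of 7 were positive, with a median of 0.26 against -0.02 over all genes. At the TSS 2 of 7 were positive, Mc2r and Nr0b1, with a median of -0.22 against -0.01. None of these values passed, and the genes share the same 6 libraries. Without KO replicate 1, WT replicate 2 or WT replicate 3 the positive count in the gene body was 5 of 7, and without KO replicate 2 it was 6. Without WT replicate 3 it was 3 of 7 at the TES. At the TSS it was 4 of 7 without WT replicate 1 and 5 of 7 with depth class (the 3 libraries with the fewest counts against the other 3) as a covariate. With library sizes taken from the 3 regions together the median of all genes moved by 0.25 in the TSS table and by -0.10 in each of the others. Mrap and Akr1b7 then changed sign in the gene body and at the TSS, and Mrap also at the TES. The members above the moved median numbered 3 for the TSS, 7 for the gene body and 6 for the TES, the same numbers as with each table's own scaling.

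Along the gene, most of these loci carried little polymerase at the annotated start relative to the body. TSS counts were 3.45% ± 0.17 of gene body counts for Akr1b7 in KO and 2.84% ± 0.55 in WT, 3.58% ± 0.80 for Mrap in KO and 3.56% ± 0.86 in WT, and 3.06% ± 0.32 for Nr5a1 in KO and 3.58% ± 0.67 in WT. The median gene had 16.7% in KO and 13.3% in WT, so these 3 lay at percentiles 11.1 to 16.7. Prkar1a was lower still, at 0.57% ± 0.08 in KO and 0.85% ± 0.40 in WT, percentiles 1.19 and 3.36. Nr0b1 was the opposite case, with 39.8%, 75.0% and 59.2% in KO and 21.2%, 21.3% and 50.0% in WT, percentiles 88.3 and 77.7. These percentages compare windows of unstated width with gene bodies of different length, so they order genes only roughly. For Prkar1a, with 6 starts over 2319 bp, the start that was counted is also not given. At the TES, Inha stood out with 52.6% ± 10.7 of gene body counts in KO and 51.3% ± 4.22 in WT, against a median gene of 11.2% in KO and 11.3% in WT. Inha is the shortest of the 7, at 3.3 kb.

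Of the 7 genes, Mc2r was the only one whose TSS percentages did not overlap between genotypes. They were 8.17%, 6.65% and 5.90% in KO, against 5.39%, 4.49% and 3.69% in WT. This raw percentage did not overlap in 12.1% of all genes, and in 11.3% with KO higher. After scaling each region to its own total, the Mc2r ratio of TSS to gene body had a log2 change of 0.26 ± 0.38 (edgeR region by genotype interaction, adjusted p = 0.957). The TSS ratios of Prkar1a, Inha and Nr5a1 had log2 changes of -0.83 ± 0.47, -0.63 ± 0.38 and -0.58 ± 0.28, and that of Nr0b1 0.60 ± 0.34. All 7 TSS ratios and all 7 TES ratios missed the threshold, with adjusted p from 0.883 to 1.000 by the same edgeR test. Over all genes the test called 0% of TSS ratios, with 3.64% at an unadjusted p under 0.05, and 0.0158% of TES ratios, with 5.7% at an unadjusted p under 0.05. With limma on the log2 ratio 0 members were called in either.

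**Figure D3:**
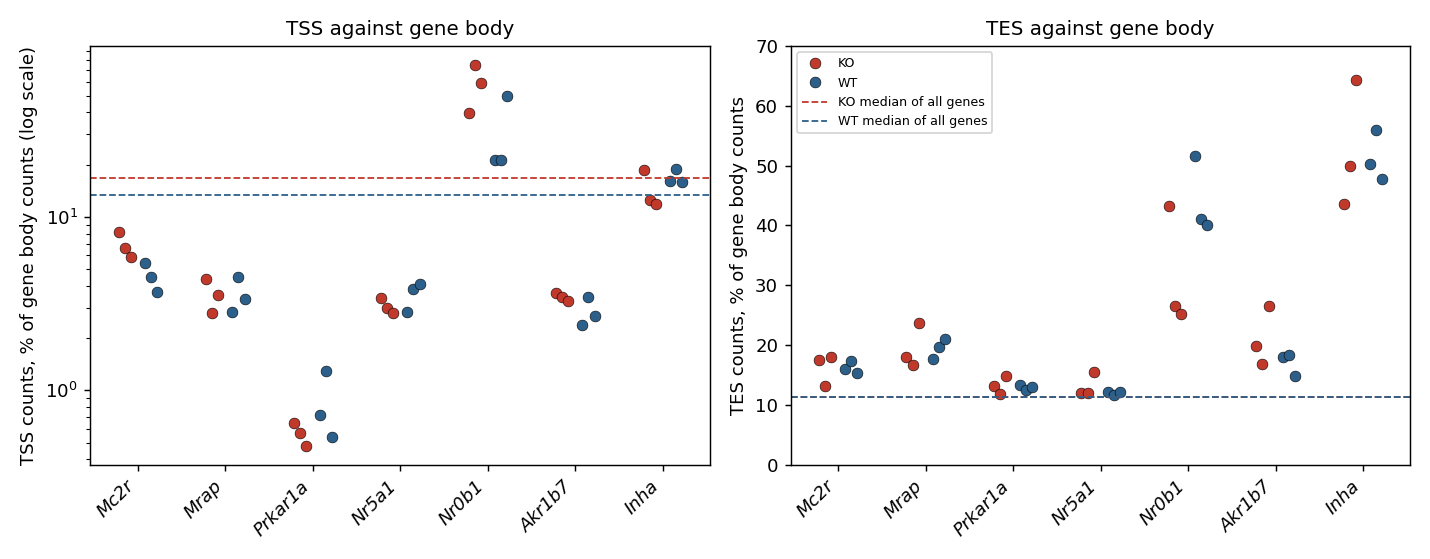
TSS counts (left, log axis) and TES counts (right, linear axis) as a percentage of the gene body counts of the same gene; each point is a library, red KO and blue WT, and dashed lines are the medians of all genes. Prkar1a lies lowest at the TSS, at 0.57% in KO and 0.85% in WT on average, and Nr0b1 highest, while Inha and Nr0b1 lie highest at the TES.

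Several of these genes had their highest and lowest values in the same libraries. WT replicate 2 was the lowest gene body library for 5 of 7 genes, all but Nr0b1 and Inha, and WT replicate 3 was the lowest for those. WT replicate 1 was the highest for Mrap and Akr1b7, and KO replicate 2 for Prkar1a, Nr5a1 and Inha. The span between the highest and lowest library was 1.36 on the log2 scale for Akr1b7, 1.21 for Mrap, 1.05 for Prkar1a and 0.88 for Nr5a1, against 0.63 for the median gene. Nr0b1 spanned 1.34, on low counts, with KO replicate 1 the highest.

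The summed gene body CPM of the cortex markers (Star, Cyp11a1, Cyp11b1, Cyp21a1, Hsd3b1 and Scarb1) was 3484, 4111 and 3361 in KO and 5243, 2091 and 3650.4 in WT. It was highest in WT replicate 1 and lowest in WT replicate 2, as for Mrap and Akr1b7. The capsule and fibroblast markers measured, 5 of 8 listed, summed to 291, 259 and 269.5 gene body CPM in KO, against 334, 551 and 432 in WT. These groups did not overlap, WT replicate 2 was the highest, and 2 of the 5 were called lower in KO in the TES table, where 0.0946% of all genes were. Col1a2, Dcn and Lum are not among the genes used here. The medulla markers summed to 688, 1262 and 777 in KO and 649, 745 and 789 in WT, with 0 called in any region. Gene by gene, 6 of the 7 had a positive gene body log2 fold change, with a median of 0.80, and 7 of 7 a positive one at the TES, with a median of 0.62. In each of these regions 3 of the 7 had an unadjusted p under 0.05 by edgeR. The shares of all genes with such a p were 5.05% (gene body) and 6.85% (TES). The medulla TSS sums did not overlap, at 154 to 271 CPM in KO and 125 to 152 CPM in WT. Nor did the TSS sums of Cyp2f2 and Thrb, the 2 X-zone markers measured. These were 18.3 to 28.1 CPM in KO and 32.1 to 40.0 CPM in WT. The listed X-zone genes Akr1c18 and Pik3c2g are not among the genes used here. The X-zone gene body sums, mostly from Thrb, did overlap, at 429 to 496 CPM in KO and 469 to 725 CPM in WT. So did the capsule and fibroblast TSS sums, at 68.5 to 94.8 CPM in KO and 85.5 to 231 CPM in WT. Of single genes, 11.4% in the TSS table and 10.4% in the gene body table had groups that did not overlap. No such share was computed for sums over gene lists. The part of these cell type differences in the members' values, the TSS value of Nr0b1 included, was not tested.

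The members were also set against the cortex markers of the same library. Mrap was 8.48%, 6.90% and 6.39% of the summed cortex marker CPM in KO, against 7.37%, 8.01% and 5.81% in WT. Nr5a1 was 11.8%, 12.97% and 10.7% in KO, against 9.39%, 13.8% and 10.05% in WT. On this scale too the groups overlapped for each of the 7 genes.

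**Figure D4:**
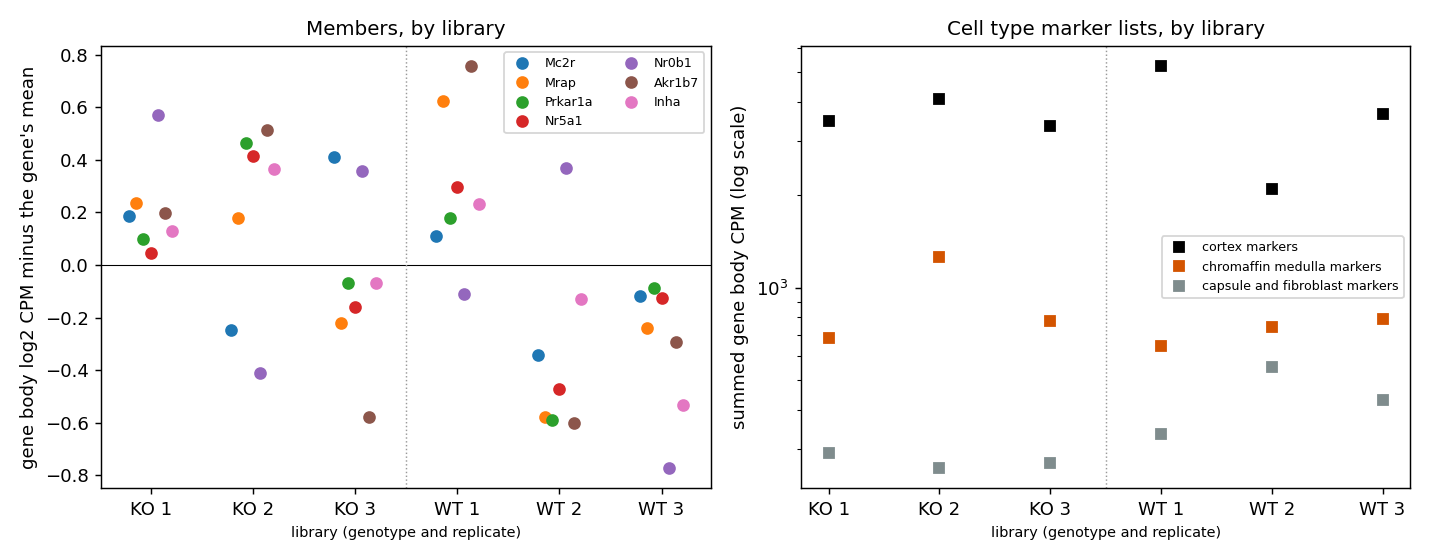
Left, gene body log2 CPM of each of the 7 genes minus its mean over 6 libraries; right, summed gene body CPM of 3 marker lists on a log axis, with KO libraries left of the dotted line and WT libraries right of it. Mrap and Akr1b7 are highest in WT replicate 1, where the cortex markers reach 5243 CPM, and lowest in WT replicate 2, where the markers are at 2091.

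The genes whose gene body values were most like each member's were found by the smallest root mean square difference of centred log2 CPM over the 6 libraries, among 6357 genes of at least median CPM. For Prkar1a these were Reep5 at 0.052 and Dnajb2 at 0.075. Close to Nr5a1 was Siah2 at 0.071, close to Mrap was Lgr4 at 0.11, and Akr1b7 was nearest to Coq10b at 0.088. Mc2r was nearest to Cd44 at 0.10 and Sacm1l at 0.12, Inha to Adora1 at 0.087 and Btg2 at 0.088, and Nr0b1 to Ccdc192 at 0.17 and Enpp1 at 0.18. Among the members themselves, Prkar1a and Nr5a1 differed by 0.085, which made Nr5a1 rank 10 of 12713 genes for Prkar1a. Mrap ranked 9 for Akr1b7 at 0.21. Other members were far apart: the nearest member to Mc2r was Prkar1a, at rank 7795, and that to Nr0b1 was Mc2r, at rank 3669. With only 6 libraries and so many genes, close matches are numerous.

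The wider pathway was read from lists of related genes. Of 29 measured genes of cyclic AMP and PKA signalling (36 listed), 0 were called in any region by edgeR. An unadjusted p under 0.05 was found for 1 gene in the TSS table, 0 in the gene body table and 4 in the TES table, with median log2 fold changes of -0.08, -0.02 and 0.10 in that order. Over all genes 5.57%, 5.05% and 6.85% had such a p, and the medians were -0.01, -0.02 and -0.02. At the TES the smallest p of the list belonged to Rapgef3, a cyclic AMP-activated exchange factor, with 70.2 ± 7.08 CPM in KO and 108 ± 17.9 CPM in WT (log2 fold change -0.62 ± 0.23, edgeR adjusted p = 0.347). Its gene body log2 fold change was -0.36 ± 0.17, with an unadjusted p of 0.0646 by the same edgeR test. Prkar1b, a sister of Prkar1a, had 61.2 ± 10.1 CPM in KO and 43.1 ± 7.02 CPM in WT at the TSS (log2 fold change 0.49 ± 0.21, adjusted p = 0.847). The factors Creb1 in the gene body and Atf1 at the TSS had log2 fold changes of 0.27 and -0.29, and the kinase gene Sik2 had -0.50 at the TES, with adjusted p of 0.934, 0.918 and 0.672 by the same edgeR test.

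Among 18 measured adrenal transcription factors (26 listed), median log2 fold changes were 0.02 at the TSS, -0.01 over the body and 0.06 at the TES. By edgeR 3, 1 and 2 of the 18 had an unadjusted p under 0.05 in that order, against 5.57%, 5.05% and 6.85% of all genes. None was called at the TSS or over the body. At the TES 1 was called, Cited2, an SF-1 and WT1 cofactor of adrenal development (chromosome 10, 17723228 to 17725674). Calls with KO higher made up 0.82% of the TES table. Cited2 rose there to 417, 309 and 333 CPM in KO, against 235, 133 and 140.4 CPM in WT. The groups did not overlap (log2 fold change 1.05 ± 0.27, edgeR adjusted p = 0.0451). Its gene body had 70.1, 81.3 and 61.1 CPM in KO, against 46.0, 32.6 and 29.4 CPM in WT (log2 fold change 0.98 ± 0.20, adjusted p = 0.157), and its TSS log2 fold change was 0.35 ± 0.17. The TES call ended with RLE scaling (adjusted p = 0.0516), with library sizes from the 3 regions together (0.126), and without KO replicate 1, 2 or 3 (0.244, 0.0906 and 0.0739) or WT replicate 2 or 3 (0.0898 and 0.0894). The log2 fold change was 1.04 with RLE scaling, 0.95 with the joint library sizes and 0.91 to 1.36 without 1 library. With depth class as a covariate the adjusted p was 0.00333, the lowest of its alternatives. Hoxb9 and the orphan receptor gene Nr4a1 had TSS log2 fold changes of -0.56 ± 0.19 and 0.49 ± 0.20, and Tcf21, a factor of capsule and stroma, had -1.26 ± 0.35 at the TES, none past the threshold (edgeR, adjusted p = 0.577, 0.815 and 0.0760). Nr2f2, itself 1 of the capsule and fibroblast markers whose sums were lower in KO, had -0.26 in the gene body (adjusted p = 0.934).

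Of 24 measured steroidogenic enzymes and SF-1 targets (26 listed), 0 were called in the TSS or gene body tables, where 1 and 2 had an unadjusted p under 0.05, and 1 at the TES. At the TES 1 of the 24 had an unadjusted p under 0.05. Of all genes 5.57%, 5.05% and 6.85% had such a p for the TSS, gene body and TES. Calls with KO higher made up 0.82% at the TES. Medians of the list were 0.07, 0.04 and 0.15 for the TSS, gene body and TES. The called gene was Fdps (chromosome 3, 89093588 to 89101967), an enzyme of isoprenoid and cholesterol synthesis rather than of steroid synthesis itself. It rose at the TES to 199, 242 and 134 CPM in KO, against 105, 88.2 and 82.7 CPM in WT (log2 fold change 1.06 ± 0.25, edgeR adjusted p = 0.0235). Its gene body had 18.7, 20.4 and 17.4 CPM in KO and 20.2, 21.9 and 14.2 CPM in WT, a log2 fold change of 0.0042 ± 0.20. A predicted small nuclear RNA gene overlaps Fdps and Rusc1 lies 225 bp away, and either may share reads with it. The call ended with library sizes from the 3 regions together (adjusted p = 0.0826) and without KO replicate 1 or 2 or WT replicate 1 or 2 (0.0522, 0.275, 0.0648 and 0.0503), while the log2 fold change was 0.94 with the joint library sizes and 0.85 to 1.26 without 1 library. The lowest adjusted p was 0.00333, with depth class as a covariate. Cyp11a1, the enzyme of the first step of steroid synthesis, had 8.85 ± 0.14 CPM in KO and 4.35 ± 2.36 CPM in WT at the TSS (log2 fold change 1.01 ± 0.49, adjusted p = 0.918). Such levels rest on few reads: Nr0b1 at 7.62 CPM in WT replicate 1 had 14 at the TSS. Por, which passes electrons to P450 enzymes, had 0.71 ± 0.31 at the TSS, Tspo 0.54 ± 0.21 and Cyp2f2, an inner-cortex gene of the mouse, -1.02 ± 0.38 in the gene body, and Cyp2f2 -0.96 ± 0.49 at the TES, none of which passed.

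In the inhibin and activin family 12 of 16 listed genes were measured, and in the aldo-keto reductases 8 of 13, with 0 called in any region in both lists by edgeR. The medians for the TSS, gene body and TES were 0.10, -0.01 and -0.05 in the inhibin list and 0.03, 0.11 and 0.13 in the reductases. In the inhibin list 1 gene had an unadjusted p under 0.05, Inhbb at the TSS, which encodes the beta B subunit that pairs with inhibin alpha. It had 15.1 ± 2.55 CPM in KO and 8.06 ± 3.48 CPM in WT (log2 fold change 0.94 ± 0.42, adjusted p = 0.878). The follistatin-like gene Fstl3 had 0.36 and the receptor gene Acvr1 -0.14 in the gene body, Tgfbr3 -0.43 at the TSS, and Smad4 and Smad3 -0.29 and -0.31 at the TES. Of the reductases, Akr1e1 had a TSS log2 fold change of 0.62 ± 0.25 and Akr7a5 0.28 ± 0.17. Akr1b10, a close relative of Akr1b7, had 0.41 ± 0.24 over its body and 0.45 ± 0.26 at its TES, and Akr1d1, a steroid reductase, had -0.65 ± 0.54 over its body and -1.08 ± 0.32 at its TES. None passed, with adjusted p of 0.111 or more by the same edgeR test. Of the 8 reductases, 1 at the TSS and 1 at the TES had an unadjusted p under 0.05. Over all genes the shares were 5.57% and 6.85%.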

How the data were processed

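RPB1 ChIP-seq of 6 adrenal libraries was used as whole-number counts per gene over the TSS, gene body and TES, as deposited by the authors, with 1 column per library and no pooling. Another deposited count table stacks the same regions, with 0 cells that differ, and gave library sizes for 1 alternative. The authors' log2 table was not used. Per the submitters' processing notes the builds were GRCm38 and mm10 and the tools included edgeR, limma, HOMER, MACS2, Picard, BWA, Trimmomatic and bcl2fastq 2.20. The sources used here do not give the counting tool, window widths, read filters, strand use or any input library. Reads of overlapping or neighbouring genes therefore cannot be separated. Groups and replicates come from the titles.

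Each table was tested with edgeR 4.0.16 (R 4.3.3): TMM scaling, filterByExpr defaults (minimum count 10, minimum total 15), quasi-likelihood F test of KO against WT with no covariate, Benjamini-Hochberg adjustment over all genes of the table, calls at an adjusted p under 0.05. All 7 members passed the filter in each region. The standard error is the size of the log2 fold change over the square root of F. Ratios of TSS or TES to gene body counts were tested as a region by genotype interaction with library as a block. Alternatives were other scalings and filters, DESeq2 1.42.0, limma-voom (limma 3.58.1), a replicate block, the form of the mouse number (with or without the letter C) and depth class as covariates, and leaving out each library. The fits were checked on simulated counts, with 100 genes changed 2-fold and 100 changed 4-fold, all above a minimum total count. That minimum lay above the summed TSS reads of Mc2r, Prkar1a, Nr0b1 and Inha and the summed TES reads of Nr0b1. The recovery given here therefore does not cover those tests or their ratios. For the TSS, gene body and TES, edgeR recovered 60, 63 and 65 of the 2-fold genes. It recovered 100, 99 and 100 of the 4-fold genes, with 20, 8 and 11 false calls. The ratio test recovered only 13 (TSS) and 12 (TES) of the 2-fold genes. It recovered 93 of the 4-fold genes for each, with 7 and 10 false calls. Of the 12718 symbols, 12384 matched RefSeq genes of GRCm38.p6, which gave lengths and coordinates (1-based).

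The members and lists were chosen with earlier results of these data known. Named genes are the 7 members, each listed gene that was called, the 2 with the smallest p per list and region, the 2 most alike per member (log2 CPM with a prior count of 2), and neighbours within 2 kb. For Mrap, Nr5a1 and Akr1b7, 1 of the 2 most alike is not reported here. Listed genes' neighbours, and the alternatives for Cited2 and Fdps, were added after their values were seen. X-zone, endothelium, macrophage and adipocyte marker lists had 0 genes called in any region. At the TES the 3 measured adipocyte, 6 endothelium and 2 X-zone markers all had negative log2 fold changes. Of these, 3, 2 and 1 had an unadjusted p under 0.05 by edgeR, against 6.85% of all genes. Of the 6 macrophage markers 4 were positive there, and 0 had such a p. The kidney tubule list had 0 measured genes.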

Additional observations from a re-analysis of the deposited data

How the results depend on the processing

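In all 15 alternatives per region, and in the alternatives of both ratios, 0 of the 7 genes were called. Over all genes, 43 calls at the TSS became 107 with library sizes from the 3 regions together, 158 with depth class, 95 with DESeq2 and 75 with the form of the mouse number, and 5 to 84 when a library was left out. In the gene body 32 became 0 with the joint library sizes (647 at an unadjusted p under 0.05), 0 with the form of the mouse number (519), 179 with DESeq2 and 95 with depth class, and 0 to 37 without 1 library. At the TES 116 became 61 with the joint library sizes and 184 with depth class, and 73 to 148 without 1 library. The causes were not tested.

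Replicate numbers gave no pairing that held for all libraries. Deviations of same-numbered libraries correlated at 0.44, -0.21 and 0.36 for the TSS and 0.080, -0.58 and 0.27 for the gene body. For the TES they correlated at 0.030, -0.31 and 0.21. Not every library correlated best with its own number. Between whole libraries, however, KO and WT replicate 1 were the most alike pair at the TSS (r = 0.964) and gene body (r = 0.988). At the TES their r was 0.940, below 0.943 for KO replicates 2 and 3. Both replicates 1 have a mouse number with the letter C. With the replicate block the calls were 100 for the TSS, 0 for the gene body (502 at an unadjusted p under 0.05) and 194 for the TES. Under the block Akr1b7 at the TSS had 0.0053, and the Mc2r TES ratio had -0.018.

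Some log2 values changed sign. With joint library sizes these were Mrap (0.054) and Akr1b7 (0.29) for the TSS, Mrap (-0.051) and Akr1b7 (-0.075) for the gene body and Mrap (-0.046) for the TES. With depth class they were Mrap (0.095), Akr1b7 (0.32) and Inha (0.029) at the TSS and Nr0b1 (0.33) at the TES. Akr1b7 at the TSS had 0.056 with limma-voom and 0.068 with the form of the mouse number. With gene body library sizes the TSS ratios of Mrap and Akr1b7 had 0.017 and 0.30 and the TES ratio of Mc2r -0.0045, and with limma the last had -0.018. Leaving out 1 library gave, at the TSS, -0.33 to 0.37 for Akr1b7 and -0.62 to 0.021 for Mrap. In the gene body it gave -0.18 to 0.48 for Mrap and -0.21 to 0.55 for Akr1b7. At the TES it gave -0.11 to 0.39 for Mrap, -0.73 to 0.25 for Nr0b1, -0.023 to 0.84 for Akr1b7 and -0.0060 to 0.45 for Inha. For TSS ratios it gave -0.30 to 0.25 for Akr1b7, -0.60 to 0.0080 for Mrap and -0.11 to 0.45 for Mc2r. For TES ratios it gave -0.11 to 0.13 for Mc2r, -0.040 to 0.10 for Prkar1a, -0.11 to 0.088 for Mrap and -0.082 to 0.14 for Inha. Depth limited the TSS values of Nr0b1, Mc2r and Prkar1a, which rested on 13 to 61, 14 to 53 and 19 to 37 reads per library. Reads were also few for Inha at the TSS, 33 to 60 per library, and Nr0b1 at the TES, 18 to 38.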
